A study of Rattus norvegicus with 8 samples.

Results

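Heat shock proteins of the cytosol and mitochondria are the chaperones that hold and refold proteins outside the secretory pathway. The group described here is a list of 10 such genes: the HSP70 genes Hspa8 and Hspa1a, the HSP90 genes Hsp90aa1 and Hsp90ab1, the J-protein genes Dnaja1 and Dnajb1, the small heat shock protein gene Hspb1, the mitochondrial chaperonin pair Hspd1 and Hspe1, and the HSP110 gene Hsph1. Members were found by gene symbol, older synonyms included. Of the 10 genes, 8 had a probe and 7 could be tested, among 14332 genes with a symbol on the array and 14219 tested. Hsp90ab1 and Hsph1 were not measured by any named probe. Hspa8 had 3 probes, none with a value on a control array.

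HSP70 proteins bind exposed hydrophobic stretches of unfolded clients in a cycle driven by ATP. J-proteins such as Dnaja1 and Dnajb1 deliver clients to HSP70 and stimulate its ATPase, HSP110 exchanges its nucleotide, and HSP90 acts later on partly folded clients such as kinases and steroid receptors. Small heat shock proteins hold unfolding proteins without using ATP, and the HSP60 and HSP10 proteins encoded by Hspd1 and Hspe1 form a folding chamber in the mitochondrial matrix. Many of these genes carry heat shock elements, sites bound by heat shock factor 1 when unfolded protein builds up.

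The livers came from 8 Sprague Dawley rats whose age is not known per the labels. The LPS group held 4 rats given lipopolysaccharide, the endotoxin of Gram-negative bacteria, at 3 mg/kg by intraperitoneal injection. The other 4 were controls, which one label calls non-treated and another describes as injected with 0.9% sodium chloride. Livers of both groups were taken at 24 h per the labels, whereas the column headers give day 2 and doses of 0 mkd for controls, 100 mkd (Mid) for LPS array 1 and 1000 mkd (High) for LPS arrays 2 to 4. The values cannot settle which holds. RNA of each liver, labelled with Cy5, was hybridised to an Agilent array beside a pool of control liver RNA labelled with Cy3. The array numbers used below follow table order within a group and do not match replicate numbers in the labels, where the replicates are called biological.

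Of 23615 probes, 23408 to 23529 had a value on a given array, with a highest liver intensity between 46.8 and 58.5 arbitrary units. The number of arrays, 4 per group, limits the precision. Of 484 probes that exceeded 20 units on some array, 144 lacked a value on another. Among 12 markers of hepatocytes, the main cell type of the labelled tissue, 8 exceeded 20 units on some array. Control array 3 stood apart: over all probes, which are no independent replicates, its log2 ratios correlated at 0.149 to 0.203 with those of LPS arrays, while the other control arrays lay between -0.129 and 0.067. Results for which it lay far from the other controls are given with and without it. The summed liver intensity of 13 neutrophil markers was 2.29 to 2.79 units on control arrays and 13.6 to 18.2 on LPS arrays, and that of 12 T and NK cell markers was 1.9 to 2.32 and 3.06 to 4.18. Bright probes weigh most in such sums: mean S100a9 was 0.235 units in controls and 9.35 after LPS. In a bulk liver sample, fewer cells of a type and less RNA per cell cannot be told apart, and the part of these cell types in the differences below was not tested. By gene, 6 of the 13 neutrophil markers rose and 1 fell, and 5 of the 12 T and NK cell markers rose and 1 fell. None had a mean liver intensity of 0 in either group. Over all features, 12.2% rose and 12.4% fell in the test described below. Summed endothelial markers were lower on the LPS arrays without overlap, at 44.4 to 50.7 against 31.5 to 41.3 units. So were summed stellate cell markers, at 11.01 to 13.64 against 7.97 to 10.1 units. Mean Kdr alone was 30.2 units in controls and 18.1 after LPS, and mean Col3a1 6.30 and 3.13. By ratio to the pool, however, 4 of 8 endothelial markers rose and 2 fell, and 2 of 7 stellate markers rose and 2 fell. Sums of other resident cells overlapped between control and LPS arrays. They were 71.8 to 210.6 and 111 to 286.2 for hepatocytes, and 40.0 to 56.3 and 36.3 to 54.9 for Kupffer cells and macrophages. For cholangiocytes they were 0.81 to 1.21 and 1.175 to 1.93. A value missing on an array counted as 0 in all the sums. Only 6 of the 12 hepatocyte markers had enough values to be tested, so the hepatocyte sums cannot be read as hepatocyte content. Of 6 tested hepatocyte markers 1 rose and 2 fell, and of 12 Kupffer cell and macrophage markers 3 rose and 3 fell. Alb, the albumin gene of hepatocytes, fell by 1.40 (adjusted p = 0.000342), and Clec4f, a Kupffer cell receptor, fell by 2.30 (adjusted p = 0.000527). In the same lists Serpina1 rose by 1.95 (adjusted p = 5.16e-05, mean liver intensity 0.02 and 0.0675 units) and Gpnmb by 2.76 (adjusted p = 2.9e-05).

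The start regions of 4 members are shown first, because they carry the letters of the heat shock element that the family is known for. Hspa8 and Hspe1 are the members read near the highest values of the arrays, and Dnaja1 and Dnajb1 are the 2 that fell. Each is a stretch of 250 bases of the gene's own strand, 220 before the annotated start and 30 after it, from RefSeq on the rat build GRCr8. Capitals mark pairs of inverted heat shock units, spelled GAANNTTC or TTCNNGAA. Both spellings read the same on the opposite strand, and they overlap by 3 bases inside a run of 3 alternating units.
Hspa8, chr8:50080294-50080543, plus strand: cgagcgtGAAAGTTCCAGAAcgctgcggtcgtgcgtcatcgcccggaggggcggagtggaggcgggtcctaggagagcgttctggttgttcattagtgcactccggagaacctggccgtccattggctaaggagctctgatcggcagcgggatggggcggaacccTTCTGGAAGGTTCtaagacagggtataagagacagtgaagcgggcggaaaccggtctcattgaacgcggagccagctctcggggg
Dnaja1, chr5:60638184-60638433, plus strand: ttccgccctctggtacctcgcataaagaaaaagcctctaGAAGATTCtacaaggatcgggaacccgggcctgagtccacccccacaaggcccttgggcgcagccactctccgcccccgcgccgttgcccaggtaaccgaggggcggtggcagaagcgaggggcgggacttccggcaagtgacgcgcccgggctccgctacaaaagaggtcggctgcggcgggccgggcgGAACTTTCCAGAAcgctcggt
Dnajb1, chr19:41431112-41431361, minus strand: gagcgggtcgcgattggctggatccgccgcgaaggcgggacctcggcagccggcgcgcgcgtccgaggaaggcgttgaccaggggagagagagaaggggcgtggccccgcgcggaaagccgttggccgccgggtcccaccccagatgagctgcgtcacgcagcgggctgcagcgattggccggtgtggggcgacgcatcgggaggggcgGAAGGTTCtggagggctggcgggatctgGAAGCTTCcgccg
Hspe1, chr9:64084107-64084356, plus strand: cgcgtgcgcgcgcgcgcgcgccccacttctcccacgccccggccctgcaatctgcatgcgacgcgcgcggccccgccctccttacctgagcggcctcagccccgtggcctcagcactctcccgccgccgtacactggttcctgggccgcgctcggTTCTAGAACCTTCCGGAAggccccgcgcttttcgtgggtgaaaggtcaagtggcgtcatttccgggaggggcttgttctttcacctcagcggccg

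Across the full windows of 300 bases, 250 before and 50 after the start, 15.9% of 33469 rat windows held such a pair and 0.80% held 3 alternating units. Of the 9 members with a window in the table, 7 held a pair and 5 held 3 alternating units, namely Hspa8, Dnaja1, Hspd1, Hspe1 and Hsph1. The windows of Hspa1a and Hsp90ab1 held neither spelling, and Hsp90aa1 had no window. Dnaja1 carried its 3 units after the annotated start, from base 10 to base 22, while Dnajb1 carried a pair 11 to 4 bases before its start and another 18 to 25 bases after it. The windows of Hspd1 and Hspe1, neighbours read in opposite directions, shared 211 bases and the same run of units, which therefore counts once in the genome. A match to these letters is a description and does not show binding of any factor. Only these exact letters inside the window were searched, so a window without them does not show that its gene lacks a heat shock element.

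**Figure D1:**
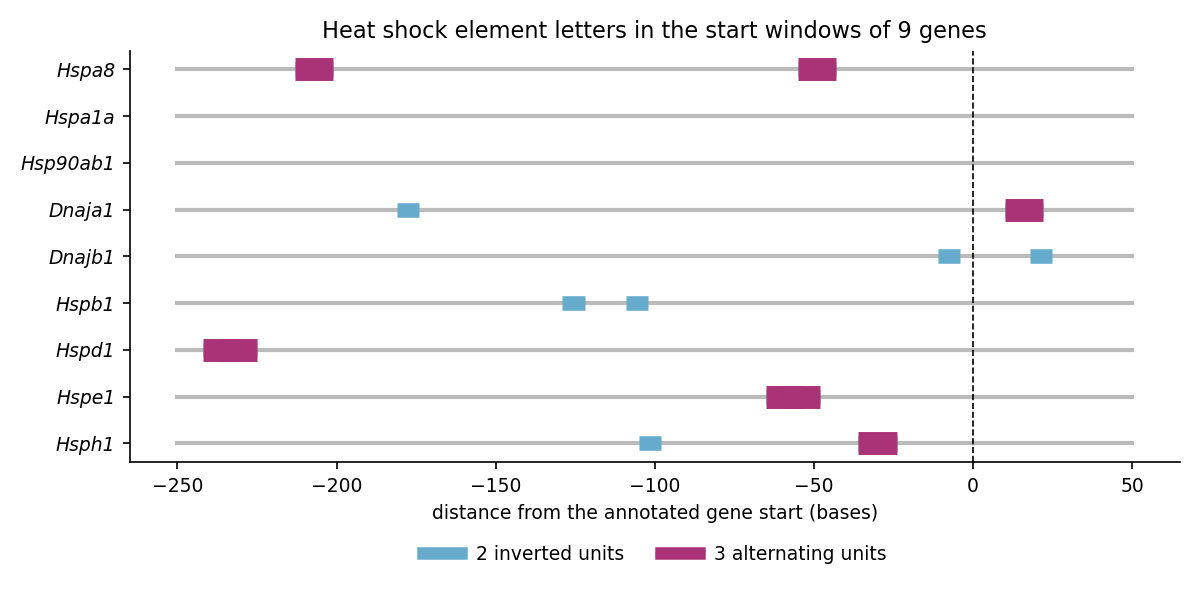
Each grey line is the window of 1 gene, placed by distance from its annotated start in bases, with blue boxes for 2 inverted units and purple boxes for 3 alternating units. The 5 genes with purple boxes are Hspa8, Dnaja1, Hspd1, Hspe1 and Hsph1, and 2 lines carry no box.

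After LPS the 2 J-protein genes fell and the mitochondrial co-chaperonin gene Hspe1 rose, while the other 4 tested members did not pass the test. Dnaja1 was 1.53-fold lower and Dnajb1 1.29-fold lower than in the controls. The ratio of Hspe1 was 1.29-fold higher, but its values lie near the ceiling of the arrays, and 8 of 21 alternatives called it. Its liver channel alone, after quantile normalization, differed by 0.05 on the log2 scale (adjusted p = 0.821). As deposited, its mean liver intensity was 44.6 units in controls and 51.4 after LPS. All results given below for the liver channel alone are from quantile normalized intensities. The measure was the log2 ratio of liver over pool on each array, and differences below are LPS minus control with the standard error from limma. A gene was called at a Benjamini-Hochberg adjusted p under 0.05 over 21052 features. Of the 7 tested members 3 were called, or 42.9%, against 24.7% of all features. By direction, 1 of 7 rose against 12.2% of all features, and 2 of 7 fell against 12.4%. The LPS and control values did not overlap in 3 of 7 members, against 27.8% of all features. With so few genes a single call moves these shares widely. The median difference of the 7 was 0.06 on the log2 scale, and that of all features was -0.04.

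**Figure D2:**
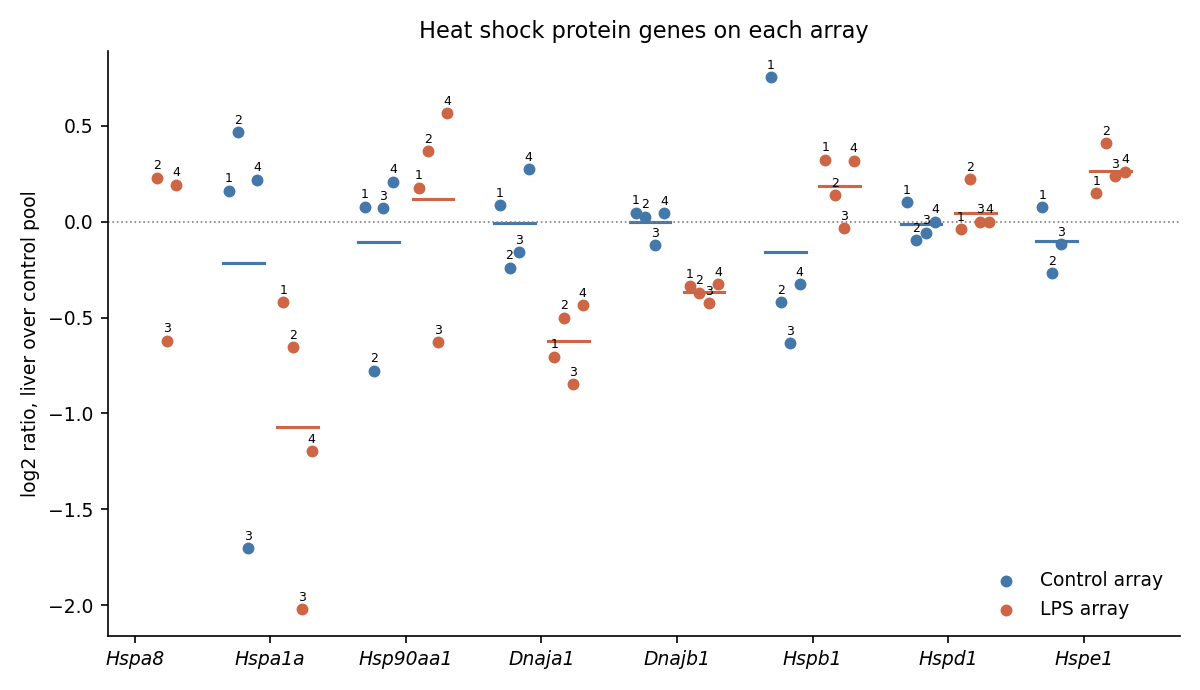
Log2 ratio of liver over control pool for the 8 measured genes on each array, with points numbered by array, control arrays in blue, LPS arrays in red, and bars at group means. The groups lie apart for Dnaja1, Dnajb1 and Hspe1, and LPS array 3 is the lowest LPS point for Hspa8, Hspa1a, Hsp90aa1, Dnaja1, Dnajb1 and Hspb1.

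Hspa8 encodes HSC70, the HSP70 that cells make constantly. Its probes gave values only on LPS arrays 2, 3 and 4, so it has no control value and no comparison. On the RefSeq-named probe the liver intensity was 55.3, 41.9 and 50.9 units there, beside 50.1, 61.5 and 47.0 units in the pool channel of the same arrays. The log2 ratio of that probe was 0.14, -0.56 and 0.11. The other probes gave 0.18, -0.58 and 0.23, and 0.36, -0.73 and 0.23. All 3 probes thus placed LPS array 3 below the pool and the other measured LPS arrays above it. The liver values of the first probe were 74.3% to 94.5% of the highest liver value on their array, at the 99.6 to 99.8 percentiles of the probes on it.

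Hspa1a encodes the HSP70 that heat induces. It has a near-identical neighbour gene, Hspa1b, from which the single probe cannot be assumed to tell it apart. The liver intensity was 2.26, 2.96, 0.62 and 2.41 units on control arrays 1 to 4, and 1.48, 1.29, 0.52 and 0.82 units on LPS arrays 1 to 4. Control array 3 lay among the LPS values, and the other control arrays lay above all LPS arrays. As log2 ratios the controls were 0.16, 0.47, -1.70 and 0.22 and the LPS arrays -0.42, -0.65, -2.02 and -1.20. The difference was -0.86 ± 0.55 (95% interval -2.14 to 0.42, adjusted p = 0.294 by limma), so it did not exceed the spread between arrays. Without control array 3 it was -1.36 and passed the test (adjusted p = 0.0473), and without that array and LPS array 1 it was -1.57 (adjusted p = 0.0393). Its direction was the same in all 23 alternatives run, of which those 2 alone passed.

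The spread of Hspa1a between livers was wide while its pool value hardly moved. The pool channel, the same kind of RNA on every array, read 1.88 to 2.14 units for this probe, a 1.14-fold span, against a 5.69-fold span between livers. The SD of its log2 ratio among the controls was 1.00, larger than in 99.0% of features, and among the LPS arrays 0.71, larger than in 97.8%. The authors' deposited table, which tests the liver against the pool within an array, gave p = 9.89e-11 for control array 3. On LPS arrays 1 to 4 the authors' deposited table gave 0.02, 0.00169, 1.52e-11 and 6.64e-08. Over the 8 arrays the gene with the most similar log2 ratio among 8949 candidates was Traf3ip1 (Pearson r = 0.96), followed by the small heat shock protein gene Hspb6 (0.95) and Rgs11 (0.95). These correlations describe 8 arrays in 2 groups, ranked from many candidates. The Hspb6 probe was dim, with mean liver intensities of 0.095 units in controls and 0.1675 after LPS.

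Dnaja1 encodes a J-protein of the cytosol with a farnesyl anchor. Its liver intensity was 7.62, 6.13, 6.51 and 9.36 units on control arrays 1 to 4 and 4.41, 4.46, 4.05 and 5.02 units on LPS arrays 1 to 4. Every LPS liver was below every control liver, and the LPS livers spanned a narrower range. The pool channel stayed between 6.31 and 7.73 units. As log2 ratios the controls were 0.09, -0.24, -0.16 and 0.28, and the LPS arrays -0.70, -0.50, -0.85 and -0.43. The difference was -0.61 ± 0.14 (95% interval -0.94 to -0.29, adjusted p = 0.0169 by limma). It passed in 19 of 23 alternatives and kept its direction in all of them. The call was lost after quantile normalization of the ratios (difference -0.50, adjusted p = 0.138) and in the test against a 1.5-fold change (adjusted p = 1). It was also lost without control array 3 and LPS array 1 (-0.63, adjusted p = 0.0652), and with a term for 2 sets of arrays seen in the pool channel, control arrays 2 to 4 against the other 5 arrays (-0.71, adjusted p = 0.122). Without control array 3 alone it held (-0.66, adjusted p = 0.0254).

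Dnajb1 encodes HSP40, the J-protein partner of the heat-induced HSP70. Its liver intensity was 1.54, 1.62, 1.38 and 1.67 units on the control arrays and 1.1, 1.06, 1.05 and 1.07 units on the LPS arrays. The 4 LPS livers lay within 0.05 units of each other and below every control. The log2 ratios were 0.05, 0.03, -0.12 and 0.04 in the controls and -0.34, -0.37, -0.43 and -0.32 after LPS, a difference of -0.36 ± 0.05 (95% interval -0.49 to -0.24, adjusted p = 0.00307 by limma). The pool channel of this probe was also lower on the LPS arrays, with a mean of 1.38 units against 1.55. The liver channel alone, quantile normalized, gave -0.53 (adjusted p = 0.00924). Without control array 3 the difference was -0.40 (adjusted p = 0.00201). The call held in 21 of 23 alternatives, and it was lost after quantile normalization of the ratios (adjusted p = 0.0735) and against a 1.5-fold change (adjusted p = 1).

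The authors' deposited table gave Dnaja1 p-values between liver and pool of 2e-05, 0.000837, 8.19e-06 and 0.00535 on LPS arrays 1 to 4, and 0.07 to 0.56 on the control arrays. For Dnajb1 the authors' deposited table gave 0.01 to 0.04 on the LPS arrays and 0.48 to 0.85 on the control arrays. These p-values compare the channels of 1 array and are not a test between groups.

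Hsp90aa1 encodes the inducible HSP90 of the cytosol. Its log2 ratio was 0.08, -0.78, 0.07 and 0.21 on the control arrays and 0.18, 0.37, -0.63 and 0.57 on the LPS arrays. A single array in each group, control array 2 and LPS array 3, lay far below the others, and the groups overlapped. The difference was 0.23 ± 0.31 (95% interval -0.50 to 0.95, adjusted p = 0.628 by limma). The liver channel read 1.33 and 1.39 units on those 2 arrays and 2.24 to 2.67 units on the other 6, while the pool channel read 1.72 to 2.31 units.

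Hspb1 encodes HSP27, a small heat shock protein that holds unfolding proteins and binds actin. Its log2 ratio was 0.75, -0.42, -0.63 and -0.32 on the control arrays and 0.32, 0.14, -0.03 and 0.32 on the LPS arrays. Control array 1 was the highest of all 8, and the other 3 controls were below every LPS array. The difference was 0.34 ± 0.29 (95% interval -0.33 to 1.02, adjusted p = 0.426 by limma). Without control array 1 it was 0.65 and passed the test (adjusted p = 0.0135). With the term for the array sets of the pool channel, which leaves control array 1 as the only control beside the LPS arrays in its set, it was -0.57 (adjusted p = 0.102).

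Hspe1 encodes HSP10, the lid of the mitochondrial folding chamber. Its liver intensity was 47.4, 42.7 and 43.7 units on control arrays 1 to 3, with no value on control array 4, and 50.4, 55.2, 47.4 and 52.7 units on LPS arrays 1 to 4. The liver values of control array 1 and LPS array 3 were nearly the same. The pool channel read 44.9, 51.3 and 47.4 units on the 3 control arrays and 45.4, 41.5, 40.2 and 44.0 units on the LPS arrays, so the channels moved in opposite directions. The log2 ratios were 0.08, -0.27 and -0.12 in the controls and 0.15, 0.41, 0.24 and 0.26 after LPS, and the groups did not overlap. The difference was 0.37 ± 0.10 (95% interval 0.12 to 0.61, adjusted p = 0.0412 by limma, 3 control and 4 LPS arrays).

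This rise depended on the setting. Liver values were 76.5% to 97.0% of the highest on their array, and 8 of 21 alternatives that could test the gene called it. Leaving out single arrays gave differences of 0.28 to 0.46. The adjusted p was 0.0265 without control array 1, 0.0444 without control array 4, which has no value for this gene, and 0.0977 without control array 2. Without control array 3 it was 0.0992, and without LPS array 1, 2, 3 or 4 in turn 0.0516, 0.0887, 0.0861 and 0.0909. In the authors' deposited table no array gave a p under 0.19 between the channels for this gene.

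Hspd1 encodes HSP60, the barrel of the same chamber. Its probe, drawn from an expressed sequence tag, read 0.25 to 0.36 units in the liver channel and 0.25 to 0.37 in the pool. Apart from the summed cell type markers, intensities are compared here within a probe only, and levels of different probes cannot be set against each other. The log2 ratio lay between -0.10 and 0.10 in the controls and between -0.04 and 0.22 after LPS, with overlapping groups. The difference was 0.06 ± 0.08 (95% interval -0.12 to 0.23, adjusted p = 0.604 by limma). A change of 1 step in the second decimal of an intensity is a sizeable part of that difference.

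**Figure D3:**
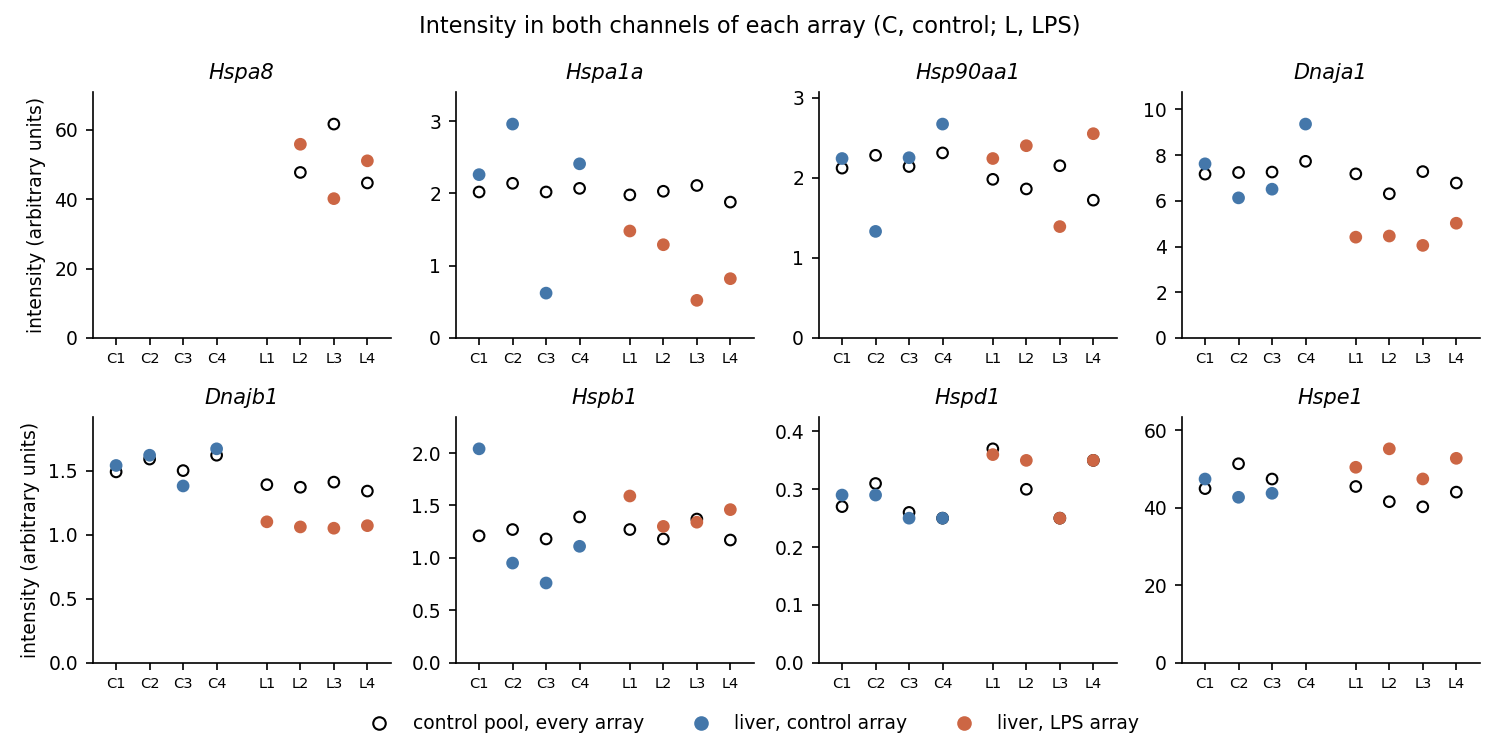
Intensity in arbitrary units of the 8 measured genes on control arrays (C1 to C4) and LPS arrays (L1 to L4), with open circles for the control pool and filled circles for the liver, and the mean of 3 probes for Hspa8. The open circles of Hspa1a stay between 1.88 and 2.14 units while its filled circles run from 0.52 to 2.96.

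The members differed in how far livers varied relative to the pool on the same arrays. Between the lowest and highest liver the span was 2.68-fold for Hspb1, 2.31-fold for Dnaja1 and 2.01-fold for Hsp90aa1, against 1.19-fold, 1.23-fold and 1.34-fold in the pool channel. For Hspe1 the spans were 1.29-fold and 1.28-fold, but its values lie near the ceiling of the arrays. For Hspd1 they were 1.44-fold and 1.48-fold, so variation between livers cannot be told from variation between arrays. The spans of these 2 genes cannot be read as low variation between livers. The SD of the log2 ratio among controls was larger than in 96.6% of features for Hspb1 and 91.7% for Hsp90aa1, but only 19% for Dnajb1 and 21.7% for Hspd1. Which array was low also recurred: LPS array 3 was the lowest LPS array for 5 of the 7 tested members, namely Hspa1a, Hsp90aa1, Dnaja1, Dnajb1 and Hspb1. Over all features LPS array 3 was the lowest LPS array in 19.3%.

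Other genes of the chaperone system outside the endoplasmic reticulum, among them stress regulators that are not chaperones, moved in both directions. Of 117 genes on 7 lists, 93 were tested, of which 17 rose and 7 fell, or 25.8% called against 24.7% of all features. By direction, 12.2% of all features rose and 12.4% fell. By list, the share called ran from 11.1% for small heat shock proteins to 36.4% for the chaperonin and prefoldin list. The median difference of the 93 was 0.09, and that of all features -0.04. The 93 ranged from -1.73 (Hspa2, not called) to 1.57 (Ddit3). In the liver channel alone, quantile normalized, the balance turned: 2 of these genes were called higher and 5 lower, and 6 of the 24 stayed called. Over all features that setting called 1513 higher and 2114 lower, against 2572 and 2618 in the main fit. For 3 of the 24 called genes, Hspa1l, Stub1 and Atf4, the ratio fell although the mean liver intensity was not lower after LPS. When single arrays were left out, 14 to 19 of the 24 stayed called. Without control array 3 the calls of Hspa14 (adjusted p = 0.106), Ppid (0.0607), Dnajc21 (0.0599), Phb2 (0.0626) and Cryab (0.0579) were lost.

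Among 13 tested relatives of HSP70 and its nucleotide exchange factors, 3 rose, 1 fell and 9 did not pass. Hspa14, an HSP70 of the ribosome-bound chaperone complex, rose by 0.54 ± 0.16 (adjusted p = 0.0468), with overlapping groups. Hspa12b rose by 0.51 ± 0.04 (adjusted p = 0.000254), at group means of 0.0625 and 0.125 liver units, a few steps of the second decimal. Bag1, a nucleotide exchange factor, also rose (0.35, adjusted p = 0.0263), and Hspa1l fell by 0.32 ± 0.06 (adjusted p = 0.00904) on a similarly dim probe. The exchange factor Hspa4, a relative of Hsph1, differed by 0.21 (adjusted p = 0.162) and did not pass.

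Of 19 further J-domain genes of the cytosol and nucleus, 2 rose, 2 fell and 15 did not pass. Dnajb12, a J-protein of the endoplasmic reticulum membrane that faces the cytosol, fell by 0.31 ± 0.06 (adjusted p = 0.00969), and Dnajc21, a factor in ribosome maturation, fell by 0.43 ± 0.13 (adjusted p = 0.0453). Dnajc8 (0.50 ± 0.07, adjusted p = 0.00191) and Dnajc14 (0.23 ± 0.07, adjusted p = 0.04) rose. The closest relative of Dnaja1 on the list, Dnaja2, differed by -0.21 (adjusted p = 0.438).

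HSP90 co-chaperones gave 4 rises and 1 fall among 15 tested. The peptidyl-prolyl isomerases Ppid (0.60 ± 0.16, adjusted p = 0.0335) and Fkbp4 (0.36 ± 0.10, adjusted p = 0.0377, overlapping groups) rose, as did Stip1 (0.31, adjusted p = 0.0194), the adaptor that joins HSP70 to HSP90, and Ttc4. Stub1, the ubiquitin ligase CHIP that binds both chaperones, fell by 0.22 ± 0.05 (adjusted p = 0.0205). Of 9 small heat shock protein genes besides Hspb1, Cryab alone passed, rising by 0.26 ± 0.07 (adjusted p = 0.0388), and Hspb6 differed by -0.12.

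In the mitochondrion 2 of 17 tested chaperone and protease genes rose and 2 fell. Dnajc15 (0.47 ± 0.10, adjusted p = 0.0122) and the prohibitin gene Phb2 (0.36 ± 0.09, adjusted p = 0.0276) rose, while its partner Phb1 (-0.40 ± 0.11, adjusted p = 0.0393, overlapping groups) and Grpel1 (-0.30 ± 0.09, adjusted p = 0.0449), the nucleotide exchange factor of mitochondrial HSP70, fell. Without control array 3 the difference of Phb1 was -0.51. That HSP70 itself, Hspa9, differed by -0.11 (adjusted p = 0.44). Of 11 tested genes listed with the cytosolic chaperonin TRiC and prefoldin, which fold actin and tubulin, 4 rose and 7 did not pass. The rises were Cct7 (0.47 ± 0.06, adjusted p = 0.00185), Pfdn1 (0.42, adjusted p = 0.0122), Txndc9 (0.43 ± 0.08, adjusted p = 0.00881) and Pdcl3 (0.40, adjusted p = 0.00685). Txndc9 and Pdcl3 are not subunits of either complex. Pdcl3 had a dim probe, with mean liver intensities of 0.0425 units in controls and 0.0625 after LPS. Of these 11, 36.4% were called against 24.7% of all features, and their median difference was 0.40 against -0.04. In the liver channel alone, quantile normalized, Cct7 (0.19, adjusted p = 0.524) and Txndc9 (0.04, adjusted p = 0.867) were not called.

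Among 9 heat shock factors and stress regulators the genes of the heat shock factors themselves did not pass: Hsf1, the main factor, differed by 0.08 (adjusted p = 0.392) and Hsf2 by -0.38 (adjusted p = 0.086). Ddit3, the transcription factor CHOP of the unfolded protein and integrated stress responses, rose by 1.57 ± 0.14 (adjusted p = 0.000364), and by 1.69 without control array 3. Atf4, a factor that drives Ddit3, fell by 0.25 ± 0.05 (adjusted p = 0.0124), with a mean liver intensity of 0.173 units in controls and 0.198 after LPS.

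Chaperones of the endoplasmic reticulum are given for comparison. Of 17 tested, 12 rose and 5 did not pass, with a median difference of 0.63. That is 70.6% called, all of them rises, where 24.7% of all features were called and 12.2% rose. Of the 12, 3 stayed called after quantile normalization of the ratios, 2 in the test against a 1.5-fold change, 4 with the array-set term, 7 in the liver channel alone and 8 to 12 with single arrays left out. Creld2 rose by 2.47 ± 0.32 (adjusted p = 0.00176) and the J-protein gene Dnajb11 by 1.64 ± 0.23 (adjusted p = 0.00234), and without control array 3 by 2.75 and 1.86. Hsp90b1, the HSP90 of this compartment, rose by 0.99 (adjusted p = 0.0123) and its mean liver intensity went from 15.3 to 25.7 units, while that of Hsp90aa1 of the cytosol was 2.12 and 2.15 units. Control array 3 was the highest control for Creld2 (0.74) and Dnajb11 (0.62) and the lowest for Hspa1a, Dnajb1 and Hspb1. The shares of the lists are descriptions, and no test of one list against another was made.

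**Figure D4:**
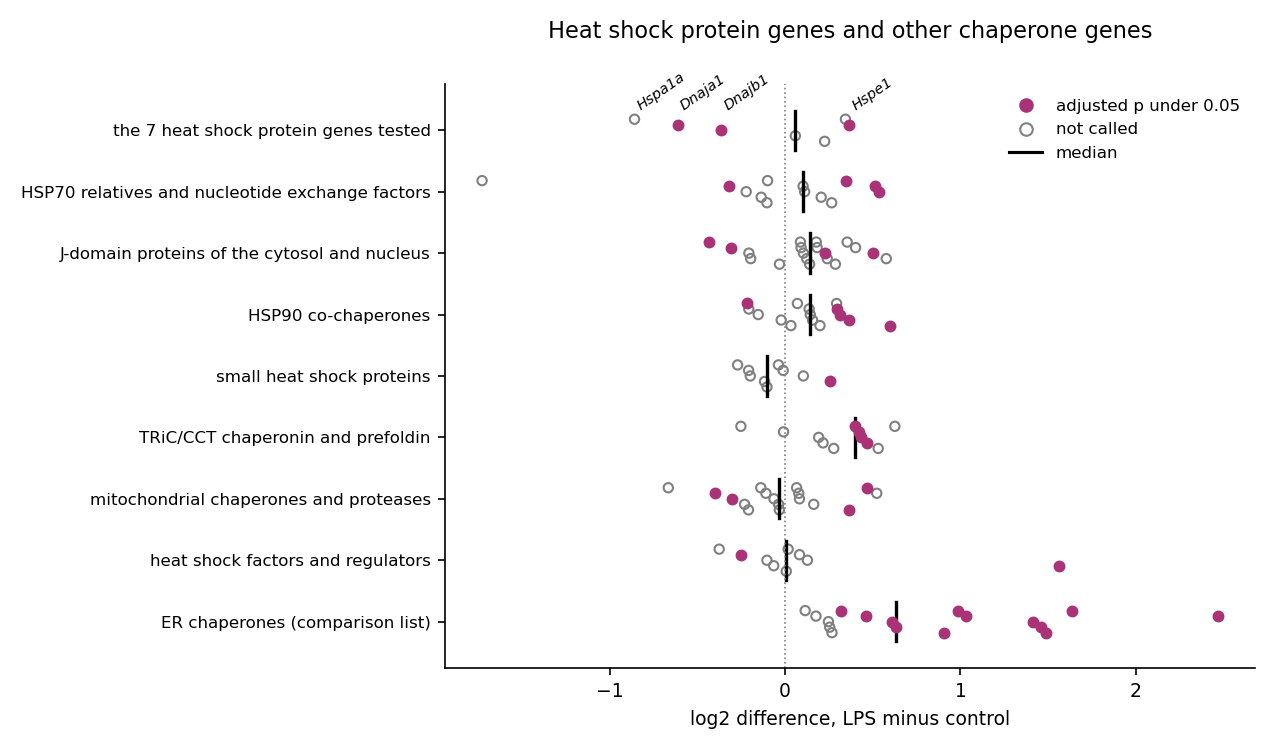
Difference in log2 ratio, LPS minus control, for the 7 tested heat shock protein genes and for each list of other chaperone genes, with filled points for genes at an adjusted p under 0.05, open points for the rest and a bar at each median. The endoplasmic reticulum list has 12 filled points, all above 0, and the other lists have points on both sides.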

How the data were processed

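Linear intensities in arbitrary units, with 2 decimals, were deposited for the liver and the pool channel of every array. The labels describe 2 rounds of amplification from 100 ng of RNA. The submitters' processing notes name Agilent Feature Extraction 8.5.1.1; how background and dye effects were handled is not given in the sources used here. A p-value set the liver against the pool on each array in the authors' deposited table and entered no test between groups. The deposited log10 ratios of the same arrays, which carry replicate numbers, served as an alternative.

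Probes were named by accession where the GRCr8 RefSeq gene table held it (4176 probes), by current symbol (9464) or by older symbol (2629); 469 kept a symbol not in that table and 6877 had none. After 188 probes with under 3 values in a group were left out, probes of a symbol were averaged, and groups were compared on log2 ratios (limma 3.58.1, R 4.3.3: lmFit, eBayes, Benjamini-Hochberg over 21052 features, threshold 0.05). The fit was also run on simulated data, made of independent normal noise with added differences. Shared array effects, missing values and rounding were absent there, so that run does not bear on the calls given here. Members, gene lists and alternatives were chosen with earlier results of these data known. Named from each list are at most the 2 called genes with the largest rise and the 2 with the largest fall, and others given with values were chosen after these were seen. The alternatives were other eBayes settings, scalings, filters, a test against a 1.5-fold change, a replicate block, left-out arrays and array sets in the pool channel. Where the liver channel alone was fitted, it was quantile normalized first. Python 3.11.15 with pandas 2.3.3 and matplotlib 3.10.9 made tables and figures.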

Additional observations from a re-analysis of the deposited data

Results flagged for a closer look

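In 10 of 55 groups of 4 arrays examined among the named genes, 1 array lay far from the other 3 relative to the range of its group (Dixon's test at 95%). That limit is passed in about 1 of 20 groups where groups are independent and values untied. Here the groups share the same arrays, many genes were named because they were called, and some dim values tie. The count therefore cannot be set against that rate. Control array 3 was the distant array in 6 of the 10 groups. It read a log2 ratio of -1.70 for Hspa1a against 0.16 to 0.47 on the other controls, and -0.12 for Dnajb1 against 0.03 to 0.05. It read -0.34 for Phb1, 0.74 for Creld2, 0.62 for Dnajb11 and 0.37 for Ddit3, in each case on the side of the LPS arrays. Control array 2 stood apart for Hsp90aa1 at -0.78. LPS array 1 stood apart for Hspa12b at 0.46, where the other 3 arrays all read 0.53, and for Cryab at 0.52. LPS array 2 stood apart for Hspd1 at 0.22. The cause was not tested.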

How the results depend on the processing

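The number of features called was 5190; it was 1518 after quantile normalization of the ratios, 391 in the test against a 1.5-fold change (treat) and 1906 with the term for the array sets of the pool channel. Heat shock genes called were 3; they were 0 after quantile normalization (3 at an unadjusted p under 0.05), 0 with treat (0 at an unadjusted p under 0.05), 1 with the array-set term, chosen after seeing the data, and 2 to 4 when single arrays were left out. Other chaperone genes called were 24; they were 4 after quantile normalization, 7 in the liver channel alone (2 higher and 5 lower, against 17 and 7), 1 with treat, 14 without control array 3 and LPS array 1, 5 with the array-set term and 14 to 25 with single arrays left out, 14 without LPS array 2 or LPS array 4. All features called numbered 3992 to 4848 with single arrays left out. In the liver channel alone they numbered 3627 (1513 higher and 2114 lower, against 2572 and 2618). Differences that changed sign were Dnajc14 in the liver channel alone (-0.11), Hspd1 without LPS array 2 (-0.00075), and Hspb1 (-0.57) and Hspd1 (-0.057) with the array-set term. The cause was not tested.

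With the replicate number as a block, on the series' log10 ratios, 3786 features, 2 heat shock genes and 14 other chaperone genes were called; Hspe1 lost its call (adjusted p = 0.18). Deviations of arrays with the same number correlated at -0.01, -0.02, 0.03 and 0.17, so the numbers were not taken to pair the arrays.

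The value ceiling limits Hspa8 and Hspe1, and the 2 decimals limit Hspa12b and, for its small difference, Hspd1. Hspe1 could not be tested with values near the ceiling left out or with probes valued on all 8 arrays. Over named genes and alternatives, 481 results kept direction and side of the threshold, 155 lost it, 3 gained it and 4 changed sign.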
